A study of Mus musculus with 15 samples.

Results

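Immediate early genes are the first genes a cell transcribes after a stimulus, and heat shock genes encode the chaperones that refold proteins under stress. The 34 genes described here, found by symbol in the authors' deposited gene table, comprise 25 transcriptional early genes and 9 Hsp and Dnaj genes, of 35519 genes counted in all. Their RNA was measured in microglia, the resident macrophages of nervous tissue, sorted from retinas of wild-type and Apoe-/- C57BL/6 mice aged 12 weeks. Each retina had received either a sham injection or microbeads, which block the drainage of the eye and raise its pressure as a model of glaucoma. Wild-type mice gave 4 sham and 3 microbead retinas, and Apoe-/- mice gave 4 of each. Apoe-/- mice lack apolipoprotein E, a lipid carrier, and the labels name no further allele or agent. The study asked whether microglia without Apoe leave their resting state when the pressure is raised.

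Transcription of early genes needs no new protein. Kinase cascades phosphorylate factors already bound to DNA, such as the serum response factor with its partners at the CArG box and CREB at the cyclic AMP response element (CRE), and transcripts appear and vanish again quickly. Fos, Fosb, Jun, Junb and Jund encode the subunits of the dimeric factor AP-1, and Egr1, Egr2 and Egr3 encode zinc finger factors. In microglia and other macrophages such genes are known to respond to many stimuli, among them cytokines, growth factors and the handling of cells when a tissue is dissociated. Heat shock genes answer to a separate factor, HSF1, which binds the heat shock element (HSE) when chaperones are occupied by unfolded proteins. Hspa1a and Hspa1b, the inducible HSP70 genes, are nearly silent in resting cells, whereas Hspa8, Hsp90ab1 and the endoplasmic reticulum chaperone gene Hspa5 are expressed at all times.

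Promoters of 21 of the 25 early genes and 6 of the 9 Hsp and Dnaj genes were found in RefSeq promoters (build GRCm38.p6; 250 bases before to 50 bases after each start; 27025 genes, both strands searched). They were searched for the letters of known binding motifs. Egr1, Egr3, Ier2, Myc, Hspa8, Hsp90aa1 and Hsp90ab1 had no promoter entry and were not searched. A CArG box was present in 2 early members, Egr2 and Zfp36, against 1.81% of all genes, and the CRE TGACGTCA in 4, Dusp1, Btg2, Maff and Ccnl1, against 2.03%. The 8-letter HSE GAANNTTC was present in Hspa1a, Hspa1b, Hspe1 and Hsph1 and in 1 early member, Jun, against 9.04% of all genes. The AP-1 site TGANTCA was found in 0 early members and in Hspa5 (8.97% of all genes). The letters TATAAA of the TATA box were found in Fos, Junb and Gadd45b (15.7%). They lay at -33 to -28 in Fos, -46 to -41 in Gadd45b and 0 to 5 in Junb, where 0 is the annotated start. The HSE of Hsph1 lay after the start. A match is a description of letters and not evidence of binding, and other binding sites of these factors can lie outside the window. The sequences below run 5′ to 3′ and end at the base before the annotated start, with the motif in capitals. RefSeq lists 4 starts of Egr2, a zinc finger factor; the window of the first holds the CArG box CCTTTTTTGG, and the overlapping windows of the other 3 share another, CCATATATGG. The first of these, and the box of Zfp36, whose protein destabilises cytokine mRNA, lay in chr10:67537406-67537565 (plus strand) and chr7:28379229-28379328 (minus strand).
Egr2: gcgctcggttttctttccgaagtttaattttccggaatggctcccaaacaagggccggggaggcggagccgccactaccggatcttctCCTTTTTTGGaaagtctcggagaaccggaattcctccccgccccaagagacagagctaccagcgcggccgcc
Zfp36: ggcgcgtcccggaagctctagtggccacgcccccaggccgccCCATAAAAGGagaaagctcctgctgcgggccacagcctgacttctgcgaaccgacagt
The CRE of Dusp1, a phosphatase that switches off MAP kinases, and of Btg2, an inhibitor of proliferation, lay in chr17:26508473-26508632 and chr1:134079156-134079335 (both minus strand).
Dusp1: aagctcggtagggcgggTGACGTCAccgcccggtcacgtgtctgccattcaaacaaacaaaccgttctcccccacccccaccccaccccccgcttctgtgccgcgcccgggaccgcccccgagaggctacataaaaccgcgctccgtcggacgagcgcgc
Btg2: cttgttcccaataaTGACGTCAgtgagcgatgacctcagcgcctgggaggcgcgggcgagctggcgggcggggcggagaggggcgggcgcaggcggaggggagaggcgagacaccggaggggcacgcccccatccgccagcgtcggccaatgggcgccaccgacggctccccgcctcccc
The HSE of Hspa1a and Hspa1b lay in chr17:34972157-34972286 and chr17:34959239-34959368 (both minus strand), and these 130 bases differ between the copies at 1 position.
Hspa1a: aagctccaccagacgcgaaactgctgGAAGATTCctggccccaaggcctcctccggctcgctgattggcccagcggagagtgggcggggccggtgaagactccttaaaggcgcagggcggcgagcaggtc
Hspa1b: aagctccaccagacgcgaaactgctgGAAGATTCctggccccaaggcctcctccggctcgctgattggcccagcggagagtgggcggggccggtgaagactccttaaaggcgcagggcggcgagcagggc

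Libraries held 458111 to 714670 gene reads, from 100 to 600 sorted cells per retina per the labels. Levels are CPM, that is counts divided by the library size after TMM adjustment and brought to 1 scale, and 0 reads in a library allow up to 3.00 CPM in the deepest and 13.3 CPM in the shallowest library (3 reads, counting error only). Apoe had 667 to 15125 reads in each wild-type library and 0 to 6 in each Apoe-/- library. All 14 microglial markers fixed for the check, among them Tmem119, P2ry12 and Cx3cr1, had reads in every library, and their summed level ran from 9235 to 17535 CPM. Of 8 neutrophil genes S100a9 and Camp were at 0 in every library, and the 6 others held 1 to 3 reads each, a summed level of at most 7.83 CPM. The mean level of the early genes was highest in 2 libraries, wild-type microbead library 2 (7.92 log2 CPM) and Apoe-/- microbead library 4 (7.86 log2 CPM). Medians and fold changes that rest on them are given with and without them. In the wild-type microbead group library 3 came next (7.03 log2 CPM), and library 1 lay below both (5.72 log2 CPM). The labels do not say that the retinas came from separate mice, so p-values measure only the spread between these samples, which may be technical. In bulk RNA, more cells that express a gene and more RNA per cell cannot be told apart.

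A filter on low counts left 20 early and 6 Hsp and Dnaj genes among the 6521 genes tested. Not tested were Jund and Maff, which encode partners in AP-1 type dimers, the zinc finger gene Egr3, the nuclear receptor gene Nr4a1, the stress gene Gadd45b, the HSP70 gene Hspa1b, the mitochondrial chaperonin gene Hspe1 and the HSP110 gene Hsph1. They held 7 (Hspa1b) to 123 (Hspe1) reads over all 15 libraries. Per length, as the mean of the authors' deposited TPM over 15 libraries, the AP-1 gene Junb was the most abundant member (145 TPM), followed by Dusp1 (121 TPM) and the constitutive HSP70 gene Hspa8 (74.97 TPM). Fos (64.2 TPM), Jun (50.7 TPM), Egr1 (46.9 TPM) and Hspa5 (41.0 TPM) came next, and Hspa1b was lowest (0.112 TPM). Between single libraries the same genes spanned wide ranges, Junb from 8.23 to 512 TPM, Dusp1 from 0.209 to 647 TPM and Fos from 0.246 to 315 TPM. The order is one of means over libraries, and differences between neighbours in it were not tested. Rhob, a small GTPase gene, had the narrowest range relative to its level among members with reads in every library, from 3.28 to 15.8 TPM.

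Early genes varied widely between retinas of the same group. Their biological coefficient of variation (BCV), the spread left after counting error, had a median of 77.9%, from 29.0% for Rhob to 118% for Dusp1. Over all genes tested the median was 30.3% and the 95th percentile 57.9%, and 15 of the 20 early genes lay above that percentile. Against the trend for genes of like abundance 18 of 20 were above, compared with 33.6% of all genes tested. The 6 Hsp and Dnaj genes had a median of 41.9%, with 4 above the trend and 1, the inducible gene Hspa1a (116%), above the 95th percentile. At the low end were Rhob, Ier5 (33.4%), whose protein is known to activate HSF1, and the HSP90 gene Hsp90ab1 (26.9%).

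**Figure D1:**
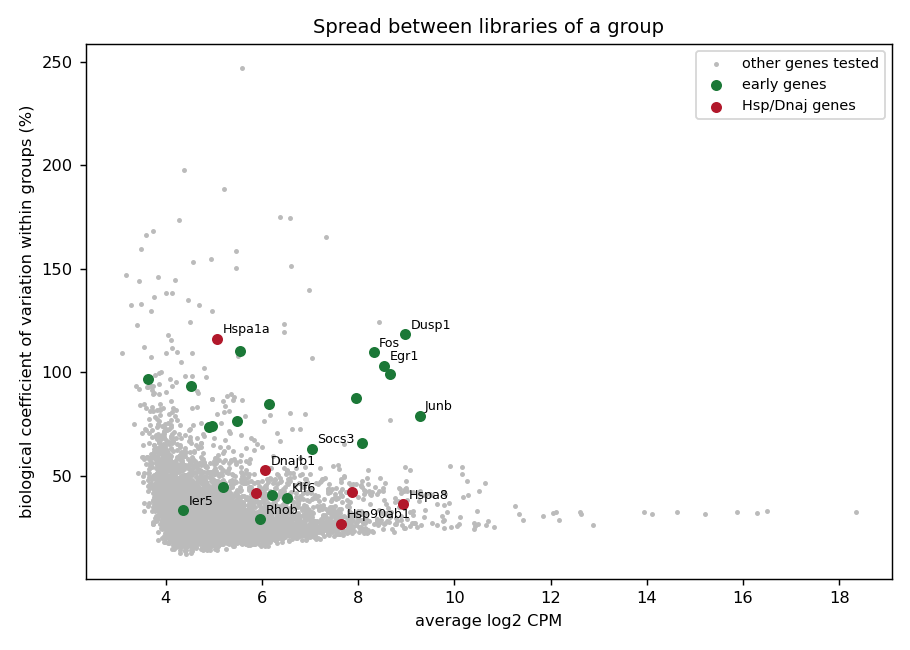
Biological coefficient of variation within groups (percent, vertical axis) against the average log2 CPM (horizontal axis) for the 6521 genes tested; green points are the 20 early genes, red points the 6 Hsp and Dnaj genes and grey points all others. Dusp1 (118%), Fos (110%) and Egr1 (103%) lie far above genes of like abundance, whereas Rhob (29.0%) and Hsp90ab1 (26.9%) lie within them.

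The spread was shared by most early genes, because the same retinas were high for nearly all of them. Wild-type sham library 3 was the highest of its group for 18 of 20 early genes (25.1% of all genes tested), wild-type microbead library 2 for 18 (35.1%), Apoe-/- sham library 4 for 13 (19.4%) and Apoe-/- microbead library 4 for 19 (27.5%). Wild-type microbead library 1 was the lowest of its group for 19 of 20 (37.1% of all genes), Apoe-/- sham library 1 for 16 (21.2%) and wild-type sham library 2 for 13 (24.1%). The mean log2 CPM over the 20 early genes was 5.54, 4.28, 6.82 and 6.04 in wild-type sham libraries 1 to 4 and 5.72, 7.92 and 7.03 in wild-type microbead libraries 1 to 3. It was 3.89, 5.82, 4.98 and 6.12 in Apoe-/- sham libraries 1 to 4 and 6.23, 4.08, 4.04 and 7.86 in Apoe-/- microbead libraries 1 to 4. Wild-type microbead library 1 thus lay inside the sham range, and Apoe-/- microbead libraries 2 and 3 were near the lowest sham library. Early genes took 0.0330% to 1.46% of the gene reads of a library. In the microbead groups, genes encoding Hsp and Dnaj proteins followed the early genes at the top end. Wild-type microbead library 2 and Apoe-/- microbead library 4 were the highest of their groups for 6 of 6 tested. In the sham groups they did so less. Wild-type sham library 3 was the highest for 4 of 6, and Apoe-/- sham library 4 for 2 of 6, as was Apoe-/- sham library 2.

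**Figure D2:**
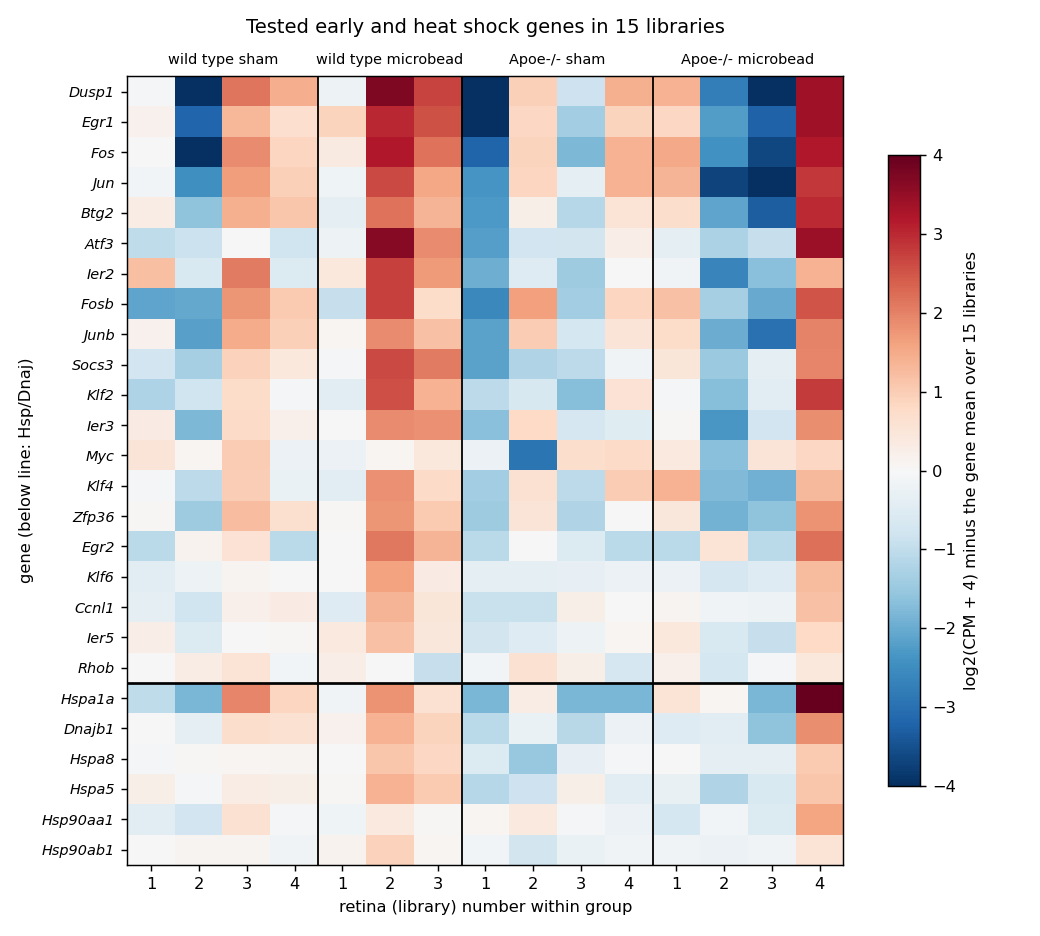
Level of each of the 26 tested genes (rows, early genes above the line, Hsp and Dnaj genes below it, each ordered by range) in each of the 15 libraries (columns, by group), as log2(CPM + 4) minus the mean of the gene over the libraries; colours stop at -4 and 4. Wild-type microbead library 2 and Apoe-/- microbead library 4 are red for nearly every row. Rhob and Myc vary less than most other early genes, and neither is highest in library 2 among the wild-type microbead libraries.

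Fos, Jun and Egr1, the classic early genes, show the pattern. Fos (chromosome 12, 85473890 to 85477273, plus strand, mm10) was measured at 119, 1.75, 456 and 222 CPM in wild-type sham libraries 1 to 4 and at 155, 1120 and 546 CPM in wild-type microbead libraries 1 to 3. In Apoe-/- retinas Fos was at 9.52, 226, 31.3 and 316 CPM in sham libraries 1 to 4 and at 350.1, 19.1, 5.83 and 1123 CPM in microbead libraries 1 to 4. The highest library exceeded the lowest 261-fold in wild-type sham and 7.23-fold in wild-type microbead retinas, and 33.2-fold and 193-fold in those of Apoe-/- mice. Groups overlapped in both genotypes, and 3 of the 4 Apoe-/- microbead libraries lay at or near the sham range while library 4 stood above it. Jun was at 175, 31.4, 608 and 366 CPM in wild-type sham, 165, 1186 and 556 CPM in wild-type microbead, 33.3, 342, 146 and 496 CPM in Apoe-/- sham and 487, 10.9, 7.78 and 1360 CPM in Apoe-/- microbead libraries. Egr1 was at 159, 12.2, 361 and 230.1 CPM, 269, 1182 and 843 CPM, 2.38, 257, 52.2 and 266 CPM, and 255, 27.3, 11.7 and 1532 CPM in the same order. Both genes ranked the libraries much as Fos did, with the lowest Apoe-/- microbead libraries far below the highest sham library.

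**Figure D3:**
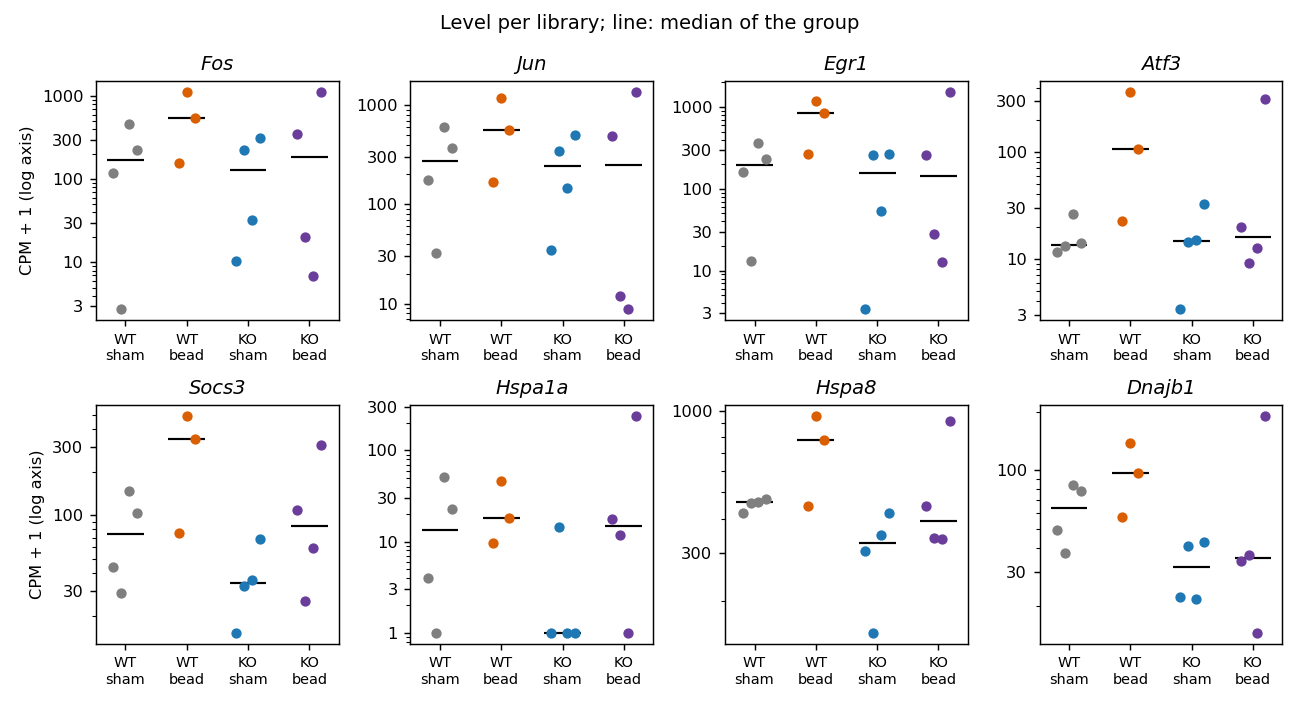
CPM + 1 (log axis) of 8 members in each library, with the group median as a line; WT is wild type, KO is Apoe-/-, bead is microbead, and points run from library 1 on the left. Within a group the points of Fos, Jun and Egr1 span from 4.39-fold (Egr1, wild-type microbead) to 261-fold (Fos, wild-type sham), those of Hspa8 stay within 151 to 959 CPM, and Apoe-/- microbead library 4 (239.6 CPM) stands alone for Hspa1a.

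Of the 20 tested early genes 18 in wild-type retinas had a positive log2 fold change of microbead over sham, with a median of 1.04, against 49.1% of all genes tested and a median of -0.01. None of the 20 passed the threshold of 0.05 (edgeR quasi-likelihood test, Benjamini-Hochberg adjusted over all genes), which 13 of 6521 genes passed (0.199%). At an unadjusted p under 0.05, 4 were higher (Atf3, Socs3, Klf6 and Klf2) and 0 lower, against 4.23% and 3.63% of all genes. DESeq2 and limma voom likewise called 0 members in this and every other comparison. Without wild-type microbead library 2 the median was 0.30 with 17 of 20 positive, and without wild-type microbead library 1 it was 1.56 with 19 of 21 positive. The fit with no filter on low counts called 6 (Atf3, Dusp1, Egr1, Fos, Klf2 and Socs3), and the fit without Apoe-/- microbead library 4 called 1 (Atf3, adjusted p = 0.0228).

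Atf3 (chromosome 1, 191170296 to 191218039, minus strand), which encodes a stress-induced factor of the ATF family, had the smallest p of the members. Its level was 10.6, 12.2, 25.2 and 12.9 CPM in wild-type sham libraries and 21.7, 363 and 105 CPM in wild-type microbead libraries. Microbead libraries 2 and 3 stood above all sham libraries, and library 1 lay below sham library 3. The log2 fold change was 3.38 (SE 0.98, adjusted p = 0.296), and 2.01 without microbead library 2. Socs3 (chromosome 11, 117966079 to 117970047, minus strand), an inhibitor of cytokine receptor signalling that STAT3 induces, was at 42.5, 28.0, 146 and 103 CPM in sham and 73.9, 491 and 335 CPM in microbead libraries. Again libraries 2 and 3 exceeded every sham library and library 1 did not (log2 fold change 1.90, SE 0.68, adjusted p = 0.495; 1.34 without library 2).

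The Krüppel-like factor genes Klf2 and Klf6 encode zinc finger regulators of macrophage and endothelial states. Klf2 was at 1.52, 3.49, 18.0 and 8.60 CPM in wild-type sham and 5.79, 74.0 and 30.7 CPM in wild-type microbead libraries (log2 fold change 2.15, SE 0.98, adjusted p = 0.612). Klf6 was at 54.7, 66.4, 83.9 and 77.4 CPM in sham and 78.2, 243 and 97.4 CPM in microbead libraries (0.99, SE 0.42, adjusted p = 0.573). For both genes the groups overlapped through microbead library 1, and library 2 was the highest. Without it the log2 fold change was 1.13 for Klf2 and 0.31 for Klf6. Egr2 was at 0, 5.24, 8.39 and 0 CPM in sham and 4.34, 32.0 and 17.3 CPM in microbead libraries (2.22, SE 1.08, adjusted p = 0.636), and its value without library 2 was 1.503. Log2 fold changes of the classic genes were 1.60 (95% interval -0.93 to 4.13) for Fos, 1.11 (-1.22 to 3.43) for Jun and 2.00 (-0.40 to 4.40) for Egr1. These intervals hold both no difference and differences of many fold. Without library 2 the values were 0.80 for Fos, 0.29 for Jun and 1.54 for Egr1.

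Among the other early members in wild-type retinas, log2 fold changes were 1.77 for Dusp1, 1.48 for Ier3, a survival gene, 1.07 for Fosb, 1.00 for the pluripotency factor gene Klf4 and 0.94 for Ier2. They were 0.91 for Ier5, 0.79 for Ccnl1, a cyclin of splicing, 0.73 for Btg2, 0.70 for Zfp36 and 0.63 for Junb. Only Myc, the growth factor-induced oncogene (-0.39), and Rhob (-0.38) were negative. Without library 2 those of Ier3 (1.17) and Dusp1 (0.88) stayed the largest of these, Ier2 was at 0.18, Btg2 at 0.072 and Fosb at -0.50. Ier5, picked after its values were seen, was the only early gene whose groups did not overlap, with 8.74 to 18.2 CPM in sham and 20.3 to 38.0 CPM in microbead libraries (SE 0.46, adjusted p = 0.657). Of all genes tested 6.32% had every microbead library above every sham library, so 1 of 20 is near the background. Of the untested genes, Gadd45b held 4 reads in the sham and 29 in the microbead libraries, 17 of them in library 2, and Nr4a1 1 to 15 reads in the microbead libraries.

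**Figure D4:**
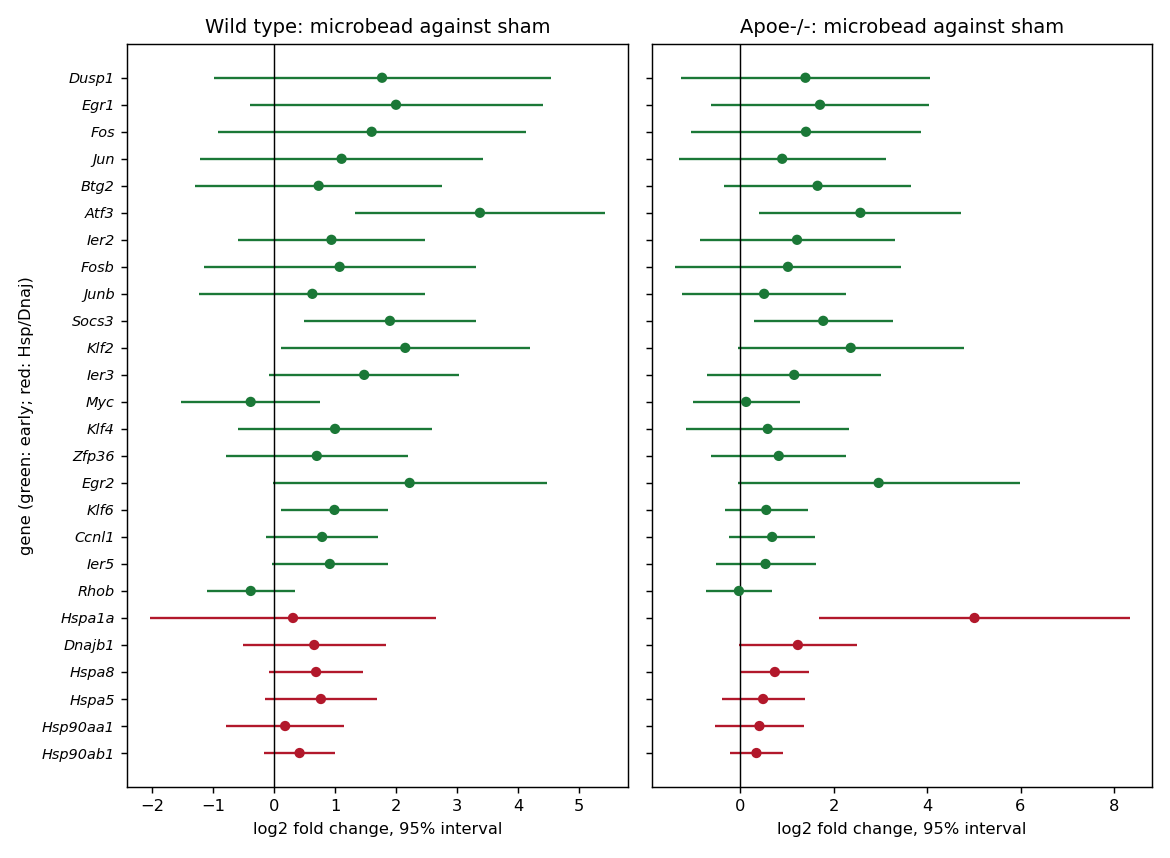
Log2 fold change of microbead over sham (points) with 95% intervals (lines) for the 26 tested genes in wild-type (left) and Apoe-/- retinas (right); green marks early and red Hsp and Dnaj genes, and the horizontal scales differ. Most points lie right of 0, with intervals that reach 0 for all but Atf3, Socs3, Klf2 and Klf6 on the left and Atf3, Socs3, Hspa1a and Hspa8 on the right.

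Hsp and Dnaj genes had smaller values in wild-type retinas. The 6 tested were all above 0 (49.1% of all genes; median log2 fold change 0.54), from 0.18 for Hsp90aa1 to 0.77 for Hspa5, and 0 passed the test or an unadjusted p under 0.05. Without microbead library 2 the median was 0.20 with 4 of 6 positive, and without microbead library 1 it was 0.77 with 7 of 7 positive. Hspa8 (chromosome 9, 40800984 to 40810087, plus strand) was at 419, 456, 462 and 471 CPM in sham and 443, 959 and 780.3 CPM in microbead libraries. Its sham libraries agreed closely, and microbead libraries 2 and 3 lay above them while library 1 lay among them (log2 fold change 0.69, SE 0.37, adjusted p = 0.691). Hspa5, which encodes BiP, was at 234, 187, 246 and 232 CPM in sham and 206, 529.9 and 411 CPM in microbead libraries (0.77, SE 0.44, adjusted p = 0.712). Hsp90ab1 was at 187, 204, 201 and 172 CPM in sham and 207, 358 and 200.1 CPM in microbead libraries (0.42, SE 0.28, adjusted p = 0.747). For Hsp90ab1 library 2 stood above the sham libraries and the other two were at their level. Without library 2 the log2 fold change was 0.43 for Hspa8, 0.45 for Hspa5 and 0.085 for Hsp90ab1.

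The HSF1 targets proper were no exception in wild-type retinas. Hspa1a (chromosome 17, 34969190 to 34972156, minus strand) was at 3.04, 0, 50.4 and 21.5 CPM in sham and 8.69, 45.0 and 17.3 CPM in microbead libraries, a log2 fold change of 0.31 (95% interval -2.03 to 2.65), and -0.58 without library 2. Its sham library 3 was as high as the highest microbead library. Dnajb1, a co-chaperone of HSP70, was at 48.6, 36.7, 82.7 and 77.4 CPM in sham and 56.5, 137 and 96.0 CPM in microbead libraries (0.66, -0.51 to 1.83), a value of 0.31 without library 2. Hspa1b held 0 reads in all 7 wild-type libraries. Of the stretches of 31 bases in Hspa1b transcripts, 67.6% also occur in Hspa1a, and 63.8% the other way, so the counting could assign reads of either copy to the other. Shared stretches, mostly with predicted gene models, also covered 44.8% of Hspa8, 51.5% of Hsp90aa1, 30.5% of Hspe1 and 13.2% of Hsp90ab1, whose counts are uncertain in the same way. They covered 50.1% of Jund and at most 6.62% of any other early gene.

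In Apoe-/- retinas the log2 fold change of microbead over sham was positive for 19 of 20 early genes, the median being 1.09, against 50.8% of all genes. None of them passed the test, which 0% of all genes passed, and 2 (Socs3 and Atf3) were higher at an unadjusted p under 0.05, against 3.31% of all genes. The sign of this difference rested on 1 retina. Without Apoe-/- microbead library 4, 4 of 19 early genes were positive and the median was -0.21. The median was 1.42 with 20 of 20 positive without microbead library 2, and 1.43 with 19 of 20 positive without microbead library 3. The fit with no filter on low counts called 7, the 6 named for wild type and Btg2.

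Socs3 was at 14.3, 31.1, 34.8 and 67.8 CPM in Apoe-/- sham libraries 1 to 4 and 108, 24.6, 58.3 and 308 CPM in Apoe-/- microbead libraries 1 to 4 (log2 fold change 1.77, SE 0.71, adjusted p = 0.700). Microbead libraries 1 and 4 exceeded all sham libraries and the other two lay among them. Without library 4 its log2 fold change was 0.79, so it kept its direction. Atf3 was at 2.38, 13.3, 13.9 and 31.3 CPM in sham and 18.6, 8.20, 11.7 and 309.6 CPM in microbead libraries (2.57, SE 1.04, adjusted p = 0.700), and its log2 fold change was -0.21 without library 4. Klf2 was at 2.38, 4.44, 0 and 15.7 CPM in sham and 8.29, 0, 5.83 and 87.1 CPM in microbead libraries (2.36, SE 1.16, adjusted p = 0.700). Its log2 fold change was -0.050 without library 4. In Atf3 and Klf2 the 3 remaining microbead libraries lay within the sham range.

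Btg2, an antiproliferative gene, was at 23.8, 155, 57.4 and 193 CPM in Apoe-/- sham and 215, 27.3, 9.72 and 1058 CPM in Apoe-/- microbead libraries (log2 fold change 1.65, SE 0.96, adjusted p = 0.738, and -0.32 without library 4). In wild-type retinas Btg2 was at 163, 40.2, 355 and 288 CPM in sham and 101, 606 and 344 CPM in microbead libraries. Egr2 held 2 reads in the Apoe-/- sham and 25 in the microbead libraries, 22 of them in library 4. Scaled by the library sizes after TMM adjustment, the read ratio was 9.99 (exact 95% interval 2.49 to 87.1, counting error only). The levels of Egr2 were 0, 4.44, 1.74 and 0 CPM in sham and 0, 8.20, 0 and 34.2 CPM in microbead libraries. Klf6 was at 59.5, 57.7, 60.9 and 65.2 CPM in sham and 64.2, 46.4, 52.5 and 188 CPM in microbead libraries (0.55, SE 0.42, adjusted p = 0.773), so 1 library again stood apart from a narrow range, and the value without it was -0.17. The remaining early genes had log2 fold changes from -0.03 for Rhob and 0.12 for Myc to 1.70 for Egr1, which was at -0.52 without library 4. Rhob was at 52.3, 88.8, 67.8 and 33.9 CPM in sham and 66.3, 32.8, 54.4 and 76.2 CPM in microbead libraries, and Myc at 21.4, 0, 45.2 and 47.0 CPM and 35.2, 5.46, 38.9 and 49.8 CPM. For these genes library 4 led the next library by little.

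Of the Hsp and Dnaj genes 6 of 6 were positive in Apoe-/- retinas (50.8% of all genes), with a median of 0.61. None passed the test, and 2 (Hspa1a and Hspa8) were higher at an unadjusted p under 0.05 (3.31% of all genes). Without microbead library 4 the median was -0.02 and 3 of 6 were positive. Hspa1a was at 0, 13.3, 0 and 0 CPM in sham libraries 1 to 4 and 16.6, 10.9, 0 and 239.6 CPM in microbead libraries 1 to 4. It held 3 reads in sham and 166 in microbead libraries, 154 of these in library 4. Scaled by the library sizes after TMM adjustment, the read ratio was 44.2 (exact 95% interval 14.9 to 217, counting error only). The fitted log2 fold change was 5.02 (SE 1.59, adjusted p = 0.700), and 2.04 without library 4. Hspa1b held 1 and 2 reads in sham libraries 3 and 4 and 2 and 2 reads in microbead libraries 3 and 4, which is 1.74, 5.22, 3.89 and 3.11 CPM, and 0 elsewhere.

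Apoe-/- microbead library 4 was also the highest for the other tested Hsp and Dnaj genes, by smaller factors. The untested genes Hspe1 and Hsph1, at few reads, were highest in other libraries. In microbead libraries 1 to 4 Hspe1 was at 8.29, 19.1, 11.7 and 12.45 CPM and Hsph1 at 10.4, 8.20, 7.78 and 4.67 CPM. Hspa8 was at 302, 151, 346 and 417 CPM in Apoe-/- sham and 443, 339, 336 and 919 CPM in Apoe-/- microbead libraries (log2 fold change 0.74, SE 0.35, adjusted p = 0.700). Its microbead libraries 1 and 4 were above all sham libraries, and its log2 fold change without library 4 was 0.28. Dnajb1 was at 21.4, 40.0, 20.9 and 41.7 CPM in sham and 33.1, 35.5, 13.6 and 189.8 CPM in microbead libraries (1.23, SE 0.60, adjusted p = 0.700), and -0.16 without library 4. Hspa5 was at 88.0, 111, 231 and 143 CPM in sham and 162, 84.7, 128 and 431 CPM in microbead libraries. Hsp90ab1 was at 174, 111, 157 and 172 CPM in sham and 172, 161, 169 and 278 CPM in microbead libraries. In both of these genes library 4 was the highest, and the other microbead libraries lay within or near the sham range. Without it the log2 fold change of Hspa5 went from 0.49 to -0.22 and that of Hsp90ab1 from 0.34 to 0.11.

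The difference between the microbead responses of the 2 genotypes was not detectable for these genes. Over all genes 0% passed the test of that difference, and 0 of 26 members did. The early genes had a median difference (Apoe-/- minus wild type) of -0.12, with 7 of 20 positive against 50.4% of all genes, and none had an unadjusted p under 0.05 (3.39% of all genes). Leaving out wild-type microbead library 2 gave a median of 0.52, and leaving out Apoe-/- microbead library 4 gave -1.22. Intervals were wide, from -3.71 to 3.32 for Fos, -3.61 to 3.02 for Egr1 and -2.23 to 1.98 for Socs3. The smallest p among early genes belonged to Klf6 (-0.44, SE 0.60), Rhob (0.35, SE 0.49), Btg2 (0.92, SE 1.37), Myc (0.51, SE 0.77) and Atf3 (-0.81, SE 1.48), each with an adjusted p of 1.00. The sign of 3 of these turned without 1 library: Klf6 was at 0.25 and Atf3 at 0.58 without wild-type microbead library 2, and Btg2 was at -1.04 without Apoe-/- microbead library 4. Wild-type Rhob was at 57.7, 69.9, 83.9 and 51.6 CPM in sham and 68.1, 56.0 and 28.0 CPM in microbead libraries, and wild-type Myc at 39.5, 28.0, 57.5 and 21.5 CPM and 21.7, 28.0 and 36.0 CPM. Their narrower spread gave the narrowest interval of the named early genes, from -0.66 to 1.37 for Rhob.

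Among Hsp and Dnaj genes 4 of 6 differences were positive (50.4% of all genes), with a median of 0.14. This sign turned when any of several single libraries was left out. Without Apoe-/- microbead library 4 the median was -0.55 with 1 of 6 positive. Without wild-type sham library 3 it was -0.022 with 3 of 6 positive, and without wild-type microbead library 1 -0.19 with 3 of 7 positive. Without wild-type microbead library 2 the median was 0.37 with 6 of 6 positive. It was -0.15 with 1 of 6 positive in the fit with a replicate block. Hspa1a alone had an unadjusted p under 0.05 (4.71, SE 2.07, adjusted p = 1.00), with the reads in 1 retina described above, and a value of 1.73 without that library. Those for Dnajb1 (0.57, SE 0.83) and Hspa5 (-0.28, SE 0.61) were smaller than their errors, and Dnajb1 was at -0.81 without Apoe-/- microbead library 4. In both genotypes together, 18 of 20 early and 6 of 6 Hsp and Dnaj genes had positive fold changes, against 30% of all genes tested. Without Apoe-/- microbead library 4 that held for 4 of 19 early and 3 of 6 Hsp and Dnaj genes (26.8% of all genes), and without wild-type microbead library 2 for 17 of 20 and 4 of 6 (27.2%). The wild-type value was the larger for 13 of 20 early and 2 of 6 Hsp and Dnaj genes.

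Between genotypes no early gene was called, and the signs depended on single libraries. In sham retinas 0 of 20 had a positive log2 fold change of Apoe-/- over wild type (48.9% of all genes), with a median of -0.47 and 0 called (0.0153% of all genes). Without wild-type sham library 3, the highest of its group for most early genes, 9 of 20 were positive and the median was -0.026. In microbead retinas 2 of 20 were positive (51% of all genes), with a median of -0.65 and 0 called (0.046%). That median became 0.07 without wild-type microbead library 2, with 12 of 20 positive, and -1.92 without Apoe-/- microbead library 4, with 1 of 19 positive. Ier2, an early response gene picked after its values were seen, was the only early gene at an unadjusted p under 0.05 in either comparison (lower for 2.99% and 2.94% of all genes). It had log2 fold changes of -2.25 (SE 0.93, adjusted p = 0.555) in sham and -1.98 (SE 0.79, adjusted p = 0.626) in microbead retinas. It was at 53.2, 12.2, 102 and 12.9 CPM in wild-type sham, 29.0, 161 and 77.4 CPM in wild-type microbead, 2.38, 13.3, 5.22 and 20.9 CPM in Apoe-/- sham and 18.6, 0, 3.89 and 60.7 CPM in Apoe-/- microbead libraries. Without wild-type sham library 3 its value in sham was -1.46, and in microbead retinas it was -1.23 without wild-type library 2 and -3.48 without Apoe-/- library 4. With no filter on low counts Ier2 was called in both comparisons. These comparisons share samples with those of microbead against sham, and the codes in the names of the deposited tables differ in their letter between genotypes, so the letter and the genotype cannot be told apart.

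Hsp and Dnaj genes had a median of -0.60 in sham (1 of 6 positive against 48.9% of all genes) and -0.42 in microbead retinas (2 of 6 positive against 51%). The microbead median was -1.20 without Apoe-/- microbead library 4 (0 of 6 positive) and -0.091 without wild-type microbead library 2 (2 of 6 positive). For Hspa8 every Apoe-/- sham library (151 to 417 CPM) was below every wild-type sham library (419 to 471 CPM), which holds for 2.39% of all genes, although library 4 missed the lowest of them narrowly (log2 fold change -0.56, SE 0.35, adjusted p = 0.655). Hspa1a held 54 reads in wild-type and 3 in Apoe-/- sham retinas, with 42 of the former in library 3 (-3.20, SE 1.80, adjusted p = 0.621, and -1.81 without that library). It was called with no filter on low counts. For Dnajb1 the value was -1.04 (SE 0.60) in sham and -0.46 (SE 0.56) in microbead retinas.

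Other genes of the same programmes were read from lists chosen by function. Of 40 further early genes 21 were tested, and all 21 were positive in wild-type retinas (49.1% of all genes), with a median of 0.96. Of these 9 were higher at an unadjusted p under 0.05 (4.23% of all genes) and 0 were called. Without wild-type microbead library 2 the median was 0.63, with 18 of 21 positive and 1 higher at an unadjusted p under 0.05. Nfkbiz, a nuclear regulator of NF-kB targets, was at 22.8, 19.2, 39.6 and 28.0 CPM in sham and 33.3, 163 and 96.0 CPM in microbead libraries (1.82, SE 0.56, adjusted p = 0.338), and the kinase gene Plk2 had a value of 2.70 (SE 0.91, adjusted p = 0.454). Their values without library 2 were 1.22 and 1.34. In Apoe-/- retinas 19 of 21 were positive (50.8% of all genes; median 0.75), 3 at an unadjusted p under 0.05 (3.31%), and without Apoe-/- microbead library 4 the median was -0.14 with 8 of 18 positive. Ppp1r15a, which encodes GADD34, was at 9.52, 13.3, 31.3 and 41.7 CPM in sham and 55.9, 16.4, 11.7 and 297 CPM in microbead libraries (1.97, SE 0.81, adjusted p = 0.700, and 0.17 without library 4). The mean level of these genes was highest in the 2 libraries in which that of the members was highest.

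Kinases and factors upstream of the early genes had smaller medians. Of 32 such genes 23 were tested and 0 called. In wild-type retinas 18 were positive (49.1% of all genes), with a median of 0.23 and values from -0.74 to 0.74, and 15 without microbead library 2, with a median of 0.21. In Apoe-/- retinas 10 were positive (50.8% of all genes), with a median of -0.063 and values from -0.55 to 1.05. Among them were the ribosomal S6 kinase gene Rps6ka1 in wild-type retinas (-0.56, SE 0.26, adjusted p = 0.614) and the MAP kinase kinase gene Map2k1 in Apoe-/- retinas (0.69, SE 0.28, adjusted p = 0.700). Of 41 other cytosolic and mitochondrial chaperones and their regulators 31 were tested, with medians of 0.04 and 0.11 and 18 positive in each genotype (49.1% and 50.8% of all genes). Hspa9, a mitochondrial HSP70 gene, had a value of 0.84 (SE 0.34, adjusted p = 0.531) in wild-type retinas, and Chordc1, an HSP90 co-chaperone gene, -0.84 (SE 0.29, adjusted p = 0.700) in Apoe-/- retinas. Of 22 endoplasmic reticulum chaperones and stress genes 21 were tested, with medians of 0.24 and 0.23, 17 positive in each genotype and 0 called. Without wild-type microbead library 2 the wild-type median was 0.19, and without Apoe-/- microbead library 4 that of Apoe-/- retinas was 0.012 with 12 positive. Atf4, a factor of the integrated stress response, was at 53.2, 40.2, 62.3 and 71.0 CPM in wild-type sham and 63.7, 189 and 117 CPM in wild-type microbead libraries (1.13, SE 0.45, adjusted p = 0.527, and 0.68 without library 2).

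**Figure D5:**
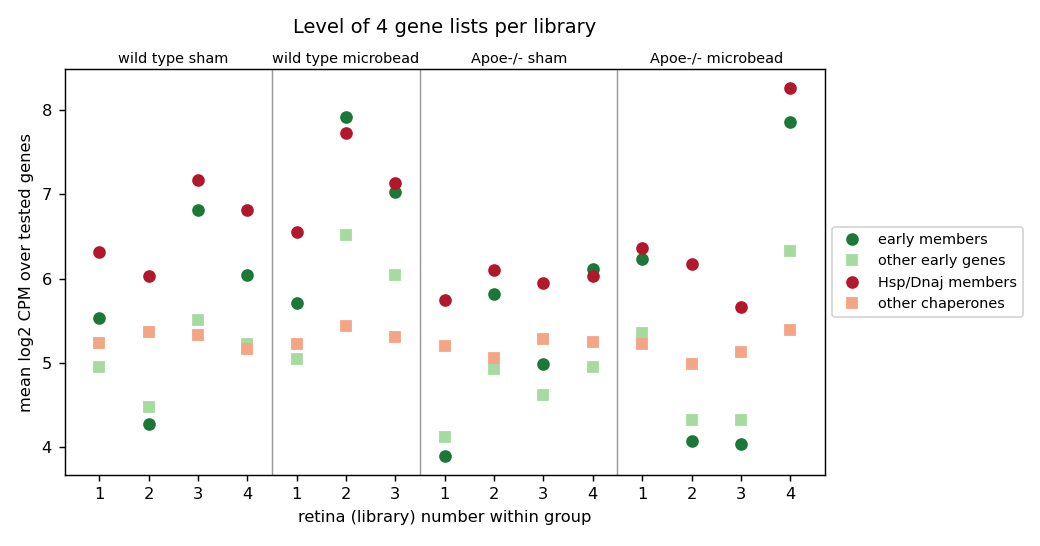
Mean log2 CPM over the tested genes of 4 lists (vertical axis) in each of the 15 libraries (horizontal axis, by group): 20 early members, 21 other early genes, 6 Hsp and Dnaj members and 31 other chaperones. The other early genes follow the early members from library to library, while the other chaperones stay between 4.99 and 5.45.

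Composition also differed between these libraries. Predicted gene models (symbols of Gm and a number) took 63.2, 65.8, 58.3 and 70.5% of the gene reads in wild-type sham, 56.9, 43.0 and 44.1% in wild-type microbead, 69.4, 79.8, 67.6 and 71.0% in Apoe-/- sham and 67.9, 73.6, 70.2 and 57.9% in Apoe-/- microbead libraries. Within each group except Apoe-/- sham the library with the highest early gene level had the lowest share. Fits without these models called 0 members and gave early medians of 0.98 and 1.01 in wild-type and Apoe-/- retinas. Of 15 rod photoreceptor markers 14 were tested, and their summed level was 594, 581.8, 2309 and 2682 CPM in wild-type sham, 668, 338 and 101 CPM in wild-type microbead, 519, 1669, 157 and 581.8 CPM in Apoe-/- sham and 561, 178, 1578 and 2663 CPM in Apoe-/- microbead libraries. All 14 were lower in wild-type microbead than sham retinas, with a median of -1.92 and 9 at an unadjusted p under 0.05 (3.63% of all genes). All 14 were positive in Apoe-/- retinas (median 0.74) and in the difference between genotypes (median 2.63, 10 at an unadjusted p under 0.05 against 3.39% of all genes), and 0 were called. Libraries with high early genes held both high (Apoe-/- microbead 4) and low (wild-type microbead 2 and 3) rod levels. Among wild-type sham retinas, libraries 3 and 4 had the highest early levels (6.82 and 6.04 log2 CPM) and also the highest rod sums. Among Apoe-/- sham retinas, library 4 had the highest early level (6.12 log2 CPM) and library 2 the highest rod sum. Summed markers of monocytes ran from 14.4 to 133 CPM and those of border macrophages from 28.0 to 133 CPM, with 1 of 7 and 3 of 8 tested. They were at 87.0 and 109 CPM in wild-type microbead library 2, the highest of its group for both, and at 26.4 and 71.6 CPM in Apoe-/- microbead library 4. In wild-type microbead against sham retinas the tested monocyte gene, Fn1, had the value 1.73 (SE 0.51, adjusted p = 0.327). Log2 fold changes of the macrophage genes Ms4a7, F13a1 and Mrc1 were 1.89 (SE 0.50, adjusted p = 0.180), 0.66 and -1.17. The untested macrophage genes Cd163 and Pf4 had means of 8.95 and 8.55 CPM in wild-type sham and 0.778 CPM each in wild-type microbead retinas. Lyve1, Cbr2 and Cd209f had means of at most 1.74 CPM in both groups. Without library 2 Fn1 was at 1.54 and Ms4a7 at 1.55. Markers of Müller glia, of which 2 of 9 were tested, summed to 84.7 to 286 CPM, the highest in wild-type microbead library 2. In wild-type microbead libraries 1 to 3 these sums were 155, 286 and 131 CPM. Of these markers Vim, which was not tested, had a mean of 68.1 CPM in wild-type microbead and 1.64 CPM in wild-type sham retinas. In the same order Glul was at 91.3 and 97.4 CPM and Slc1a3 at 27.7 and 24.1 CPM. The others had means of at most 1.57 CPM in both groups. Of 13 mitochondrially encoded genes 8 had reads in every library, and the others were listed at 0 in some libraries of a group and with many reads in the rest (mt-Co2 at 0, 118, 160 and 50 reads in wild-type sham and at 0 in all 3 wild-type microbead libraries). The 8 summed to 972 to 2991 CPM, and the highest sums were in Apoe-/- microbead libraries 2 (2991 CPM) and 3 (2405 CPM), whose early genes were among the lowest. The part of rod, monocyte, macrophage, Müller glial or mitochondrial RNA in these results was not tested.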

How the data were processed

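RNA of sorted retinal microglia was measured in 15 libraries grouped by their labels. Per the file headers the authors deposited 1 Salmon table per library, with estimated counts (expected counts), TPM and effective lengths per transcript, and a gene table of TPM described there as SMART-Seq2. Salmon 1.4.0, R 4.0.3, DESeq2 1.30.1 and mm10 are named in the submitters' processing notes. No source used here names the annotation release, the library type or any read filter.

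Estimated counts were summed per gene through GENCODE M21 (116023 of 116945 transcripts, 0.217 to 0.354% of reads unassigned) and rounded. Gene TPM rebuilt this way equalled the authors' deposited gene value in 99.72% of cases (relative tolerance 0.001; 34358 of its 35735 genes compared). The effective length, per the file headers in bases, served only for length offsets.

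Tests were run in R 4.3.3 with edgeR 4.0.16 (quasi-likelihood F-test, TMM, filterByExpr) in a single fit of 4 groups and 5 contrasts (common biological coefficient of variation 34.4%), two-sided, with Benjamini-Hochberg adjustment over the 6521 genes tested. TMM-scaled sizes ran from 225227 to 1000258. Mean levels use log2 CPM with a prior count of 2. Alternatives were DESeq2 1.42.0, RLE size factors, no filter, at least 10 reads in at least 7 libraries, limma 3.58.1 voom, limma on log2(TPM + 1), length offsets, only the groups compared, a replicate block, no predicted gene models, Hspa1a and Hspa1b summed, and each library left out. Every pair of libraries within a group differed by more than sampling noise, with a smallest chi-square of 2.21 per degree of freedom.

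The members and all lists were chosen with earlier results of these data known. The value in every library is given for the 5 early and 3 Hsp and Dnaj genes of smallest p in each microbead contrast and their difference and for Fos, Jun, Egr1, Hspa1a, Hspa1b and Dnajb1. From the other lists the 2 genes of smallest p per list and contrast could be named. Promoters came from RefSeq (GRCm38.p6).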

Additional observations from a re-analysis of the deposited data

Results flagged for a closer look

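Single libraries lay far from the rest of their group for 7 of the named members, in 9 of the 50 groups of 4 libraries examined. These groups are not separate trials, because the same libraries were high for most of the genes. Many of the genes were also picked by their p in these data. The count can therefore not be set against a chance rate. In 7 of the 9 the library was Apoe-/- microbead 4. There Egr1 was at 1532 CPM against 11.7 to 255 CPM in the other 3 libraries, Atf3 at 309.6 CPM against 8.20 to 18.6 CPM, Klf6 at 188.2 CPM against 46.4 to 64.2 CPM and Klf2 at 87.12 CPM against 0 to 8.29 CPM. Of the Hsp and Dnaj genes, Hspa1a was at 239.6 CPM against 0 to 16.6 CPM, Hsp90ab1 at 278.5 CPM against 161 to 172 CPM and Dnajb1 at 189.8 CPM against 13.6 to 35.5 CPM. Atf3 was at 25.18 CPM in wild-type sham library 3 against 10.6 to 12.9 CPM in the others. Hspa1a was at 13.32 CPM, which is 3 reads, in Apoe-/- sham library 2 and at 0 in the others. Groups of 3 libraries were not examined in this way, which leaves out wild-type microbead retinas. The part of read composition in these values was not tested.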

How the results depend on the processing

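Counts of called members matched those reported in 245 of 253 alternatives. With no filter on low counts 6 early genes were called in wild-type and 7 in Apoe-/- microbead retinas, 1 Hsp gene (Hspa1a) in Apoe-/- microbead retinas, in the difference between genotypes and between genotypes in sham retinas, and 1 early gene (Ier2) between genotypes in sham and in microbead retinas; the cause was not tested. With each library left out in turn, 0 to 1 early genes were called in wild-type retinas (Atf3 without Apoe-/- microbead library 4), and 0 to 0 in every other count. Medians of the early genes then ran from 0.30 to 1.73 in wild-type and from -0.21 to 1.49 in Apoe-/- retinas, and those of the Hsp and Dnaj genes from 0.20 to 0.77 and from -0.02 to 0.81. A replicate block moved the early median from -0.12 to -0.49 in the difference, from -0.65 to -1.23 between genotypes in microbead and from -0.47 to -0.75 in sham retinas, and the Hsp and Dnaj median in wild-type retinas from 0.54 to 0.87. Voom gave early medians of 0.52 in Apoe-/- retinas, -0.51 in the difference and -1.40 between genotypes in microbead retinas, and log2(TPM + 1) gave 0.56, -1.06 and -1.65.

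Of 805 alternatives for log2 fold changes of named genes 24 changed sign. Leaving out libraries gave these ranges in Apoe-/- retinas: Atf3 -0.21 to 3.19, Btg2 -0.32 to 2.14, Dnajb1 -0.16 to 1.57, Egr1 -0.52 to 2.23, Fos -0.19 to 2.19, Jun -0.59 to 1.46 and Klf2 -0.050 to 3.86, each lowest without microbead library 4. Hspa1a in wild-type retinas ranged from -0.58 to 1.68. For the difference between genotypes the ranges were -3.58 to 0.58 for Atf3, -1.04 to 1.60 for Btg2, -0.81 to 0.93 for Dnajb1, -0.98 to 0.067 for Hspa5 and -1.15 to 0.25 for Klf6. Voom gave -0.46 for Btg2 in the difference and -0.78 for Jun in Apoe-/- retinas. On log2(TPM + 1) the values were -0.89 for Btg2, -0.57 for Dnajb1, -0.056 for Myc and -0.10 for Rhob in the difference and -0.23 for Jun in Apoe-/- retinas; that scale moved the median of all genes by 0.45 in wild-type and by -0.37 in the difference.

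Replicate numbers gave no sign of pairing the samples. Over all genes tested, same-numbered libraries had correlations of -0.16 to 0.22, and 1 of 14 matched its own number best. Such a check can miss a pairing that is weak or limited to few genes. A replicate block changed no count of called members, turned Dnajb1 in the difference to -0.067, and lowered the calls over all genes in wild-type retinas from 13 to 7. That count was 36 with DESeq2, 33 with only the groups compared, 43 on log2(TPM + 1), 124 with no filter, 22 without predicted models, 5 at 10 reads or more in 7 libraries, 7 with voom and 7 with length offsets. With 3 to 4 retinas per group and this spread, members at few reads have wide intervals.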
